A study of Mus musculus with 26 samples.

Results

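The comparison described here is of mice that lack PGC-1a in skeletal muscle (MKO) with FLOX littermates, both on the control diet. Its members are the 7 arrays titled Control diet MKO and the 6 arrays titled Control diet FLOX, 13 of the 26 arrays of the series, and each array is 1 mouse. RNA came from TA/EDL muscle, the tibialis anterior and extensor digitorum longus of the lower leg. All 13 mice were housed singly, were of mixed C57/BL6 and 129 background, and received AIN-93M chow at 90% of their own free intake within a 12-week study. The other 13 mice (6 CR FLOX and 7 CR MKO) were calorie restricted (CR). They received 80% of free intake in the first week and 60% after it, listed as a 40% CR diet for 11 weeks. A baseline of 10 days is listed for mice of both diets. The control-diet mice, at 90%, were also held below free intake, but less so. The restricted mice serve here as separate mice in which the same genotypes can be compared. FLOX names the control genotype and MKO the muscle knockout; the labels give neither the promoter that drives the recombinase nor the age or sex of the mice. The fit covered all 34945 probe sets that name a single gene, out of 45101 on the array, and after a filter on dim probe sets left 14854 genes with 1 probe set each.

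PGC-1a, encoded by Ppargc1a, is a transcriptional coactivator: it binds no DNA itself but joins factors such as the estrogen-related receptors (ERRs), NRF1, GABPA and MEF2 and raises the transcription of their targets. In skeletal muscle it is known as a driver of mitochondrial gene expression and of the oxidative, slow-twitch character of fibres. ERRalpha, the product of Esrra, is both its partner and one of its targets, and binds the half-site AAGGTCA.

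Values are the deposited intensities, given as lowest, median and highest mouse of a group. Differences are MKO minus FLOX on the log2(intensity + 16) scale with their standard error (SE), tested with limma with Benjamini-Hochberg adjustment over all genes. A gene is called at an adjusted p under 0.05. On this scale the change of a dim gene is understated. In whole-muscle RNA, fewer cells of a type and less RNA per cell cannot be told apart.

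In all, 2865 genes were called, 19.3% of those tested. Of these, 1345 (9.05%) were higher in MKO mice and 1520 (10.2%) were lower. With each array centred on its median instead, the larger side changed: 1526 were higher and 1313 lower. The balance shifted with the size of the difference: 139 genes (0.936%) were lower by at least 0.5 and 28 (0.189%) were higher by as much. In 567 genes (3.82%) every MKO mouse was below every FLOX mouse, and in 419 (2.82%) every MKO mouse was above. These shares are the background for each statement below that groups did not overlap. Those of 10.2% lower and 9.05% higher are the background for the counts of each list. The median difference over all genes was -0.02. Tested probe set by probe set, 4673 of the 34945 (13.4%) were called. Arrays within a group correlated at 0.988 to 0.995 (FLOX) and 0.984 to 0.995 (MKO) over the 14854 genes tested. Arrays of opposite groups correlated at 0.979 to 0.991.

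Muscle fibre markers bore out the labelled tissue: of 16 tested, 15 were not called, and their mean log2 level lay at 14.50 to 14.55 in FLOX mice and 14.51 to 14.57 in MKO mice. The exception was myoglobin (Mb), the oxygen store of oxidative fibres, which was lower by 0.14 (SE 0.03, adjusted p = 0.00468); its other probe set was not called.

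The targeted gene was brighter in the knockout group. Ppargc1a read 797, 923 and 985 in FLOX mice and 1244, 1425 and 2360 in MKO mice, a difference of 0.72 (SE 0.11, adjusted p = 2.46e-05). All 7 MKO mice were above all 6 FLOX mice, and 1 MKO mouse, replicate 3, stood far above the rest. Each of the 5 probe sets of the gene showed the same, with folds of 1.53 to 1.76. No source used here places these probe sets inside or outside the exons removed in MKO mice, so they do not check the deletion, and every direction below rests on the label MKO. Ppargc1b, its close relative, was higher by 0.23 (SE 0.08, adjusted p = 0.035), a call that was lost when any of 7 of the 13 mice was left out, with an adjusted p of up to 0.0805. Pprc1, the third coactivator of the family, read 468, 490 and 536 in FLOX and 467, 501 and 542 in MKO mice, and its difference of 0.02 did not pass (adjusted p = 0.829).

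**Figure D1:**
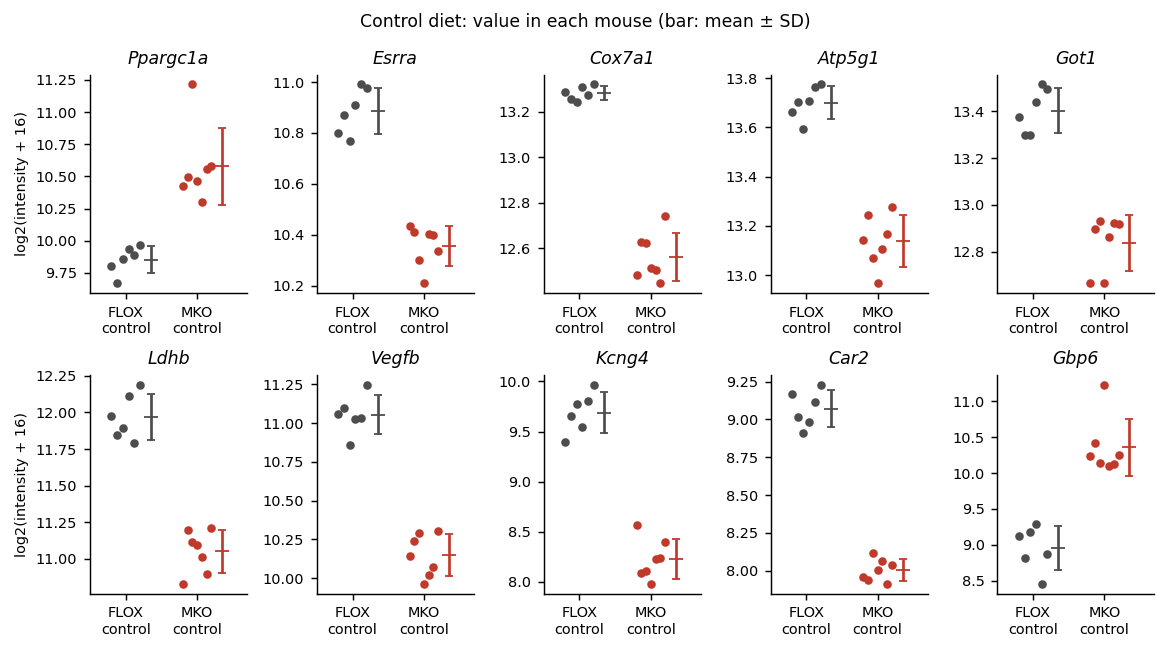
Values of 10 genes in each of the 13 control-diet mice, as log2(intensity + 16), with the mean and SD of each group as a bar; each panel has its own vertical axis. In every panel the 7 MKO mice lie wholly above (Ppargc1a, Gbp6) or wholly below (the other 8 genes) the 6 FLOX mice, and MKO replicate 3 stands apart for Ppargc1a and MKO replicate 4 for Gbp6.

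Among the partner factors, the receptor that PGC-1a is known to induce fell. Esrra read 1729, 1884 and 2018 in FLOX mice against 1167, 1335 and 1368 in MKO mice, a difference of -0.53 (SE 0.05, adjusted p = 3.53e-08), with all 7 MKO mice below the FLOX range. Its second probe set was not called. Esrrg, which encodes the related ERRgamma, was higher by 0.34 (SE 0.10, adjusted p = 0.0223), but another of its 3 probe sets was called in the opposite direction, and the mean of the 3 gave -0.02 (adjusted p = 0.779), so no direction can be given for the gene. Nuclear factors that act with PGC-1a on mitochondrial genes did not pass the test: Nrf1 differed by 0.01 (adjusted p = 0.865), Gabpa by 0.12 (adjusted p = 0.139) and Tfam, the packaging factor of mitochondrial DNA, by -0.03 (adjusted p = 0.671). Yy1, another partner, was higher by 0.35 (adjusted p = 0.00022), though none of its 3 other probe sets was called and the mean of all 4 did not pass (0.07, adjusted p = 0.105). Mef2c, a muscle transcription factor, rose by 0.20 (SE 0.04, adjusted p = 0.00265), and 3 of its 4 other probe sets were called the same way. Perm1, a muscle regulator known to act with PGC-1 and ERR, differed by -0.20 without passing (SE 0.09, adjusted p = 0.118). That value passed when FLOX replicate 3 (-0.25, adjusted p = 0.0456), MKO replicate 2 (-0.24, adjusted p = 0.0496) or MKO replicate 3 (-0.25, adjusted p = 0.0356) was left out. Over the 30 tested coactivators and partners, 6 were higher (20%, against 9.05% of all genes) and 4 lower (13.3%, against 10.2%), with a median of 0.00.

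Promoters were searched for motifs of these factors because the genes described below fell together. The windows run from 250 bases before to 50 after each RefSeq start (GRCm38.p6), both strands were searched, and 11882 of the 14854 genes had a window. The ERR half-site AAGGTCA was present in 4.34% of the tested genes' promoters, in 5.5% of those of genes lower in MKO mice and in 3.04% of those higher. In the respiratory chain and ATP synthase it was found in 8 of 72 genes (11.1%), 7 of which were lower. The GABPA motif CCGGAAG was found in 16.8% of tested genes, 19.0% of lower genes, 19.7% of higher genes, 26.4% of the chain genes and 25 of 67 mitochondrial ribosome genes (37.3%). An NRF1 motif of 10 positions was found in 9.7%, 11.4%, 13.1% and 22.2% of tested, lower, higher and chain genes, and a MEF2 motif of 10 positions in 3.88%, 4.12%, 4.98% and 1.39%. In the mitochondrial ribosome genes the ERR, NRF1 and MEF2 shares were 5.97%, 17.9% and 8.96%. In 28 beta-oxidation and TCA cycle genes the ERR, GABPA, NRF1 and MEF2 shares were 7.14%, 10.7%, 14.3% and 0.0%. A further 71 genes were lower by 0.5 or more and outside the set, described below, that varies with Pnmal1. Their shares, in that order, were 5.63%, 7.04%, 2.82% and 5.63%. None of these motifs contains another. Across all 27025 RefSeq genes with a window the shares were 5.38% for ERR, 9.93% for GABPA, 5.19% for NRF1 and 4.23% for MEF2. A match describes the letters of a window and is no measure of binding.

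The 250 bases before the start of 3 lower genes with an upstream ERR half-site are shown, 5′ to 3′ on the strand of the gene, because they represent an aminotransferase, a mitochondrial translation factor and a mitochondrial deacylase that recur below; capitals mark the half-site on either strand. Got1 lies at chr19:43524606-43524855 on the minus strand, Gfm1 at chr3:67429865-67430114 on the plus strand and Sirt5 at chr13:43365285-43365534 on the plus strand (RefSeq, GRCm38.p6). The half-site begins 245, 12 and 165 bases before the start, in that order.
Got1: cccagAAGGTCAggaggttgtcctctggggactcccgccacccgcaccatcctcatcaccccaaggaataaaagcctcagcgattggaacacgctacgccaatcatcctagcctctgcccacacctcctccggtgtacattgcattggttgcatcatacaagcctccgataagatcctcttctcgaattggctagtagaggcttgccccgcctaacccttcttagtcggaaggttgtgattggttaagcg
Gfm1: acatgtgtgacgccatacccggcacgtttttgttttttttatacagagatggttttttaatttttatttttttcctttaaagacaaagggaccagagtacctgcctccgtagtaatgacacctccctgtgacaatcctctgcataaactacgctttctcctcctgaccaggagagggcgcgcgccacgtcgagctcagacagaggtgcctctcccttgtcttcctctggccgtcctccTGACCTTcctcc
Sirt5: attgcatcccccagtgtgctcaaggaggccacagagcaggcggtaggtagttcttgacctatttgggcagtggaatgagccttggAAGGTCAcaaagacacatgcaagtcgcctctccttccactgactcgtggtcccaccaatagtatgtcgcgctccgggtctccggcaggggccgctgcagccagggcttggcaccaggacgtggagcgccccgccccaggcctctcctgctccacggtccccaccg

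The respiratory chain fell nearly as a whole. Of 85 subunits of complexes I to IV and ATP synthase and the few assembly genes listed with them, 77 were lower (90.6%, against 10.2% of all genes) and none was higher, with a median of -0.22 against -0.02 for all genes. The mean log2 level over the 85 genes ranged from 12.77 to 12.86 in FLOX mice and from 12.50 to 12.65 in MKO mice, so the groups did not overlap. Single genes moved little: 2 of the 85 fell by 0.5 or more. By complex, 31 of 33 complex I subunits, 7 of 7 complex II genes, 11 of 12 genes of complex III and cytochrome c, 12 of 15 complex IV subunits and 16 of 18 ATP synthase genes were lower, with medians between -0.20 and -0.28.

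Cox7a1, the heart and muscle isoform of a cytochrome oxidase subunit, showed the largest fall in the chain. It read 9663, 9927 and 10202 in FLOX mice and 5564, 5840 and 6837 in MKO mice, a difference of -0.72 (SE 0.05, adjusted p = 1.74e-11). The brightest MKO mouse lay well below the dimmest FLOX mouse. Its ubiquitous counterpart Cox7a2 read 10889, 11525 and 12000 against 9617, 10532 and 10953, a difference of -0.14 (SE 0.04, adjusted p = 0.0122). The log2 ratio of Cox7a1 to Cox7a2 was -0.23 to -0.16 in FLOX mice and -0.92 to -0.68 in MKO mice, and the shift of -0.57 was the most extreme of all assignments of the labels (exact permutation test, two-sided p = 0.00117, the smallest this design can give, adjusted over 3 isoform pairs 0.0035). The other isoform pairs did not split this way. Muscle Cox6a2 fell by 0.25 and ubiquitous Cox6a1 fell by 0.36, and the ratio shifted by 0.11 (exact permutation p = 0.311, adjusted 0.311). Muscle Cox8b fell by 0.26 and Cox8a fell by 0.39, a shift of 0.13 (exact permutation p = 0.0769, adjusted 0.115). Cox4i1 fell by 0.22 (adjusted p = 8.65e-07), while Cox4i2, a dim gene reading 200 to 237 in FLOX and 203 to 239 in MKO mice, differed by 0.01 (adjusted p = 0.879).

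**Figure D2:**
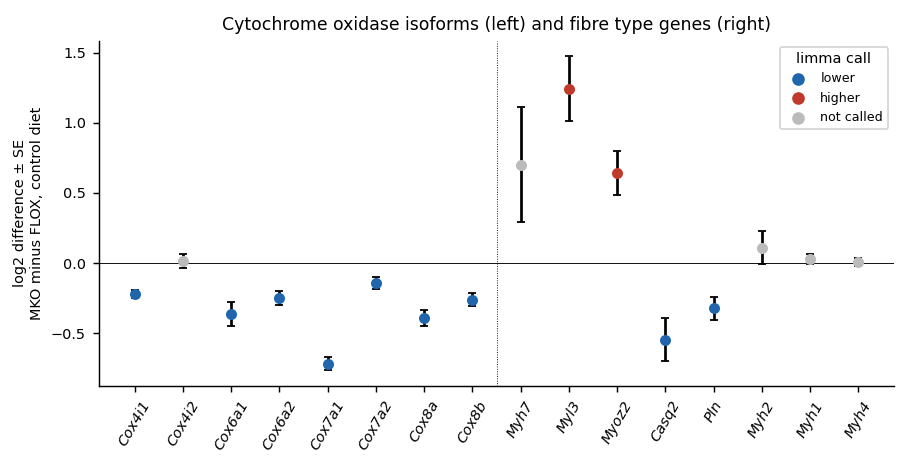
Log2 difference between MKO and FLOX mice on the control diet with its SE, for paired cytochrome oxidase isoforms (left of the dotted line) and fibre type genes (right); colour gives the limma call. Cox7a1 lies at -0.72 beside Cox7a2 at -0.14, while the Cox6a and Cox8 isoforms lie together, and the fast myosins Myh1 and Myh4 lie near 0.

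In ATP synthase the largest difference was that of Atp5g1, which encodes the membrane ring subunit c: 12354, 13336 and 13993 in FLOX mice against 7987, 9018 and 9895 in MKO mice (-0.56, SE 0.04, adjusted p = 2.2e-10). The catalytic subunit Atp5b fell by 0.24 (SE 0.03, adjusted p = 1.71e-07), and Atp5e fell by 0.30 (adjusted p = 2.77e-05). For all of these every MKO mouse was below every FLOX mouse. In complex I, Ndufa8 read 7792, 8129 and 8980 against 5739, 6191 and 6640 (-0.42, SE 0.04, adjusted p = 1.88e-08), and the flavoprotein subunit Ndufv1 read 9263, 9420 and 9817 against 7143, 7444 and 7878 (-0.34, SE 0.03, adjusted p = 3.53e-08). Ndufa4 fell by 0.32 (adjusted p = 9.67e-09). Assembly factors followed, with 8 of 13 for complex I lower: Ndufaf5 read 1032, 1063 and 1137 against 755, 791 and 814 (-0.45, adjusted p = 9.67e-09), and Ndufaf6 fell by 0.44 (adjusted p = 1.39e-08). Neither overlapped between groups. In complex II the iron-sulphur subunit Sdhb fell by 0.32 (adjusted p = 3.68e-06) and the membrane anchor Sdhd fell by 0.28 (adjusted p = 0.000976). In complex III, Uqcrq fell by 0.38 (adjusted p = 7.87e-07) and cytochrome c1, Cyc1, fell by 0.26 (adjusted p = 1.36e-06).

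For complex IV assembly, 8 of 17 genes were lower and 1 was higher. The copper chaperone Sco2 read 457, 482 and 568 in FLOX mice and 307, 343 and 370 in MKO mice, a difference of -0.53 (SE 0.05, adjusted p = 6.3e-08) with no overlap. The gene in the other direction was Surf1, which differed by 0.09 (adjusted p = 0.0234) and lost the call without any of 5 of the 13 mice (adjusted p up to 0.0568). In coenzyme Q synthesis 4 of 12 genes were lower (33.3%, against 10.2% of all genes), among them Coq9 with -0.35 (adjusted p = 1.82e-07).

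Fuel oxidation upstream of the chain was lower as well. Of 16 mitochondrial beta-oxidation genes 14 were lower and none higher, with a median of -0.34. Acaa2, the thiolase of the last step, read 3495, 3631 and 4049 in FLOX mice and 2119, 2301 and 2753 in MKO mice (-0.65, SE 0.05, adjusted p = 1.82e-09). The long-chain dehydrogenase Acadl read 7177, 8217 and 8380 against 4669, 5442 and 6426 (-0.53, SE 0.06, adjusted p = 7.89e-07), and Acadvl, for very long chains, fell by 0.43 (adjusted p = 1.07e-06). No MKO mouse reached the FLOX range in any of the 3. In fatty acid uptake and the carnitine shuttle, 10 of 16 were lower (median -0.25): Slc27a1, a fatty acid transporter, fell by 0.62 (adjusted p = 6.39e-06), Pnpla2, the lipase ATGL, fell by 0.60 (adjusted p = 2.01e-05), Cpt2 fell by 0.38 (adjusted p = 1.84e-06) and Crat, carnitine acetyltransferase, fell by 0.36 (adjusted p = 1.74e-06).

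In the TCA cycle 13 of 16 genes were lower, with a median of -0.25. The mitochondrial malic enzyme Me3 read 1316, 1431 and 1558 in FLOX mice and 752, 879 and 1095 in MKO mice (-0.69, SE 0.07, adjusted p = 1.45e-07). Mdh2, malate dehydrogenase, fell by 0.25 (adjusted p = 1.63e-07) and Idh3g fell by 0.29 (adjusted p = 1.71e-07). Of 11 genes of pyruvate dehydrogenase and its control, 7 were lower and 1 higher. Dlat, the acetyltransferase core of the complex, fell by 0.52 (SE 0.06, adjusted p = 9.59e-07), and Pdk2, one of the kinases that switch the complex off, fell by 0.43 (adjusted p = 1.51e-06). Pdk1, another such kinase, was the exception at 0.19 (adjusted p = 0.023), and without any of 4 of the mice its adjusted p rose to as much as 0.0622. Branched-chain amino acid breakdown had 10 of 19 genes lower, led by Mcee with -0.41 (adjusted p = 1.9e-06).

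Enzymes that move reducing equivalents, lactate and ketone bodies included some of the largest falls of the comparison, with 10 of 16 listed genes lower and none higher. Ldhb, the lactate dehydrogenase subunit typical of oxidative tissue, read 3531, 3899 and 4652 in FLOX mice and 1805, 2173 and 2356 in MKO mice (-0.92, SE 0.10, adjusted p = 1.89e-07). Its 3 other probe sets were called the same way. Bdh1, which starts ketone body oxidation, read 1572, 2224 and 2975 against 721, 1041 and 1663 (-1.01, SE 0.19, adjusted p = 0.000386). Here 6 of 7 MKO mice were below the FLOX range and the group spread was wide. The aminotransferases of the malate-aspartate shuttle fell together. Got2, in mitochondria, read 9706, 10296 and 11199 against 6021, 6488 and 7966 (-0.63, SE 0.05, adjusted p = 5.03e-09). Got1, in the cytosol and with the half-site shown above, read 10058, 10847 and 11683 against 6477, 7617 and 7798 (-0.56, SE 0.05, adjusted p = 1.96e-08). Slc25a11, the oxoglutarate carrier of the shuttle, fell by 0.50 (adjusted p = 4.46e-07). Among ATP exporters and creatine kinases 6 of 14 were lower, and Ckmt2, the creatine kinase of muscle mitochondria, read 17328, 17936 and 18856 against 9658, 11874 and 14887 (-0.59, SE 0.06, adjusted p = 1.24e-07).

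Glycolysis did not share this pattern. Of 14 genes of glucose uptake and glycolysis 13 were not called, and the median was -0.01. Hk1, the hexokinase of most tissues, was the exception at -0.14 (adjusted p = 0.00407). Glycogen genes lay on the other side, with 6 of 13 higher (9.05% of all genes were), none lower and a median of 0.18. Phkb, a regulatory subunit of phosphorylase kinase, read 5652, 6090 and 6472 in FLOX mice and 7116, 7889 and 8631 in MKO mice (0.37, SE 0.05, adjusted p = 1.3e-05). Stbd1, a glycogen-binding protein, was higher by 0.43 (SE 0.11, adjusted p = 0.00481), with 5 of 7 MKO mice above the FLOX range. Gyg, the glycogenin that primes new glycogen, rose by 0.22 (adjusted p = 0.000554).

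Genes for making and importing mitochondrial proteins were lower in part. Of 76 mitochondrial ribosomal protein genes 37 were lower (48.7%) and none higher, with a median of -0.14; Mrpl45 fell by 0.35 (adjusted p = 6.78e-07) and Mrpl15 fell by 0.34 (adjusted p = 7.43e-07), each with all 7 MKO mice below the FLOX range. Of 23 translation genes 8 were lower (34.8%, against 10.2% of all genes). Gfm1, an elongation factor whose promoter is shown above, read 2093, 2214 and 2288 in FLOX mice and 1491, 1632 and 1781 in MKO mice (-0.42, SE 0.04, adjusted p = 3.53e-08), and Tufm, the elongation factor that delivers tRNA, fell by 0.43 (adjusted p = 3.73e-06). For import and protein quality control 15 of 31 were lower and 1 higher. The translocase subunit Timm17a fell by 0.34 (adjusted p = 1.71e-07), and Yme1l1, a protease of the inner membrane, was higher by 0.22 (adjusted p = 0.0029), although none of its 3 other probe sets was called. Whether these lists differ from the chain was not tested.

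Mtfp1, which promotes mitochondrial fission, had the second smallest p of the whole comparison. It read 1699, 1888 and 2093 in FLOX mice and 867, 926 and 1011 in MKO mice, a difference of -0.99 (SE 0.05, adjusted p = 2.21e-14). The 2 groups were far apart and narrow. In the same list Mfn1, a mitofusin, fell by 0.44 (adjusted p = 8.76e-05) and Fundc1, a mitophagy receptor, rose by 0.22 (adjusted p = 0.00329). Of its 14 genes 5 were lower (35.7%, against 10.2% of all genes) and 1 higher (7.14%, against 9.05%). Chchd10, a protein of the cristae, read 14713, 15734 and 16472 against 10223, 11061 and 11818 (-0.53, SE 0.04, adjusted p = 2.2e-10). The 321 genes pooled as mitochondrial lists took in the antioxidant enzymes. They left out beta-oxidation, pyruvate dehydrogenase, branched-chain amino acid breakdown and the other lists of fuel use, and so did not count Pdk1. Of the 321, 186 were lower (57.9%) and 5 were higher: Surf1, Yme1l1, Fundc1, Nqo1 and Gpx3.

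Redox enzymes were mixed, with 5 of 20 lower (10.2% of all genes were) and 2 higher (9.05% of all genes). The mitochondrial superoxide dismutase Sod2 read 6182, 6504 and 6972 in FLOX mice and 4039, 4352 and 5100 in MKO mice (-0.53, SE 0.05, adjusted p = 1.04e-08), and all 3 of its other probe sets were called the same way. Glutaredoxin, Glrx, read 1062, 1393 and 1947 against 608, 801 and 961 (-0.87, SE 0.13, adjusted p = 3.41e-05). Neither overlapped between groups. Nqo1 was higher by 0.38 (adjusted p = 0.0289) and Gpx3 by 0.37 (adjusted p = 0.0489); the first call was lost without any of 6 mice (adjusted p up to 0.0742) and the second without any of 9 (up to 0.131). Among AMPK subunits, sirtuins and NAD enzymes 4 of 19 were lower (21.1%, against 10.2% of all genes) and 1 higher. Sirt3, the main mitochondrial deacetylase, read 945, 1035 and 1132 against 570, 657 and 761 (-0.66, SE 0.05, adjusted p = 3.79e-10). Sirt5, with the half-site shown above, fell by 0.24 (adjusted p = 0.00038), and Prkag2, a regulatory AMPK subunit, rose by 0.27 (adjusted p = 0.0146).

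Several of the largest falls belonged to genes outside the mitochondrial lists. Car2, a cytosolic carbonic anhydrase, had the smallest p of all: it read 465, 520 and 584 in FLOX mice and 225, 241 and 262 in MKO mice (-1.07, SE 0.05, adjusted p = 5.75e-15). Kcng4, a modifier subunit of voltage-gated potassium channels, read 658, 824 and 985 against 237, 283 and 363 (-1.46, SE 0.11, adjusted p = 2.07e-10), the largest fall of any called gene with an established name. S100a1, a calcium-binding regulator of the sarcoplasmic reticulum, read 2510, 2604 and 2894 against 938, 1265 and 1393 (-1.12, SE 0.08, adjusted p = 4.76e-11). In each of these the MKO median was under every FLOX value by a wide margin. Iqsec2, an exchange factor for ARF GTPases, read 569, 671 and 779 against 221, 275 and 352 (-1.24, SE 0.10, adjusted p = 1.09e-09). Phyh, the peroxisomal enzyme that breaks down branched fatty acids, read 3052, 3585 and 3834 against 1734, 1942 and 2062 (-0.87, SE 0.05, adjusted p = 7.4e-12). Fuom fell by 0.69 (adjusted p = 1.28e-11) and Plbd1 fell by 0.84 (adjusted p = 1.5e-10), both without overlap.

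Relatives of these genes were called in both directions, beside 10.2% of all genes lower and 9.05% higher. Of 9 carbonic anhydrases 2 were lower and 1 higher, and Car3, the abundant muscle form, rose by 0.23 (adjusted p = 0.000314). Of 14 channel genes 3 were lower and 2 higher: Kcnq5, a potassium channel, read 324, 392 and 463 in FLOX mice and 609, 695 and 771 in MKO mice (0.80, SE 0.08, adjusted p = 1.3e-07), and Abcc9, the sulphonylurea receptor, rose by 0.30 (adjusted p = 3.44e-05). Of 17 genes of calcium handling 2 were lower and 2 higher, the other fall being that of Hrc, a calcium-binding protein of the reticulum, by 0.28 (adjusted p = 3.73e-06).

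Sarcomere genes of fast fibres did not change detectably. None of 18 was called in either direction by limma (background 19.3%), and their differences ran from -0.02 to 0.11. Their mean log2 level was 14.47 to 14.52 in FLOX mice, against 8.98 to 9.03 over all genes. Whether such bright probe sets still follow the amount of RNA was not tested. Myh4 and Myh1, the fast myosins, differed by 0.01 and 0.03 (adjusted p = 0.823 and 0.636), and Myh2 by 0.11 (adjusted p = 0.562). Slow fibre genes varied widely from mouse to mouse. Of 16, 4 were higher (25%, against 9.05% of all genes) and 2 lower (12.5%, against 10.2%), with a median of 0.34. Only 2 of the 16 differences were below 0. The mean log2 level of the list was 9.16 to 10.21 in FLOX mice and 9.52 to 10.16 in MKO mice. Myh7, the slow myosin, read 249, 307 and 1036 in FLOX mice and 283, 704 and 1242 in MKO mice. Its ranges overlapped almost fully, although the MKO median was higher (0.70, SE 0.41, adjusted p = 0.247). Myl3, a slow light chain, read 998, 2094 and 3476 against 3684, 4819 and 6310 (1.24, SE 0.23, adjusted p = 0.000366), with no overlap. Myoz2, a calsarcin of slow fibres, rose by 0.64 (SE 0.16, adjusted p = 0.00479). Csrp3, a stress-responsive Z-disc protein, read 723, 2505 and 4831 against 2649, 4160 and 11185 (1.17, SE 0.41, adjusted p = 0.0462), and lost its call without any of 8 of the mice (adjusted p up to 0.149). Casq2 and Pln, the calsequestrin and phospholamban of slow fibres and heart, went the other way, by -0.55 (adjusted p = 0.0125) and -0.32 (adjusted p = 0.00741). With the mean level of Myh7, Tnni1 and Tnnt1 as a covariate, an alternative added after seeing the data, 2440 genes were called and 75 of the 85 chain genes were lower.

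At the neuromuscular junction 3 of 20 genes were higher (15%, against 9.05% of all genes) and 2 lower (10%, against 10.2%), shares near those of all genes. Chrnb1, the beta subunit of the acetylcholine receptor, read 732, 794 and 877 in FLOX mice and 1009, 1185 and 1356 in MKO mice (0.54, SE 0.07, adjusted p = 1.32e-06), with no overlap. Musk, the receptor kinase that clusters it, rose by 0.21 (adjusted p = 0.0146), and Agrn, the ligand of that system, fell by 0.18 (adjusted p = 0.0147).

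Secreted and angiogenic factors held a few large falls. Vegfb, a growth factor of the VEGF family, read 1845, 2099 and 2415 in FLOX mice and 982, 1116 and 1248 in MKO mice (-0.91, SE 0.06, adjusted p = 2.24e-11), with the groups far apart. Fgf1 fell by 0.33 (adjusted p = 0.00112) and Vegfd rose by 0.24 (adjusted p = 0.00923), and the other 12 of 15 angiogenic genes were not called. The shares of 13.3% lower and 6.67% higher are near the 10.2% and 9.05% of all genes. Of 15 endothelial markers 5 were lower (33.3%, against 10.2% of all genes), 10 were not called and none was higher, with a median of -0.13. Their mean log2 level overlapped between groups, at 9.48 to 9.67 in FLOX and 9.34 to 9.56 in MKO mice. Tie1, an endothelial receptor, fell by 0.22 (adjusted p = 0.00684) and kept its call whichever mouse was left out. The calls of Flt1 (-0.23), Emcn (-0.14), Plvap (-0.19) and Robo4 (-0.19) were lost without any of 6, 4, 5 and 8 mice in that order, with adjusted p of up to 0.109, 0.0844, 0.0836 and 0.0943. The part of these cells in the value of Vegfb was not tested. Of 10 secreted factors linked to PGC-1a 5 were lower (50%, against 10.2% of all genes). Among them was Fstl1, described below with the genes that vary with Pnmal1. Fndc5, the precursor of irisin, read 1314, 1395 and 1619 against 833, 929 and 970 (-0.64, SE 0.05, adjusted p = 9.81e-10). Kyat1, a kynurenine aminotransferase, fell by 0.45 (adjusted p = 3.96e-05) and Il15 fell by 0.38 (adjusted p = 0.000554).

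Markers of the other cells of a muscle were called in few cases, and 10.2% of all genes were lower. Of 14 macrophage and leukocyte markers 1 was lower, and of 11 fibroblast markers 2 were, among them Fap (-0.52, adjusted p = 0.00727). Of 8 smooth muscle and pericyte markers 2 were lower, with Notch3 at -0.26 (adjusted p = 0.000508). Pax7, the satellite cell factor, was lower by 0.28 (adjusted p = 0.00819), while the other 3 satellite cell markers were not called. A covariate added after seeing the data was the level of the genes that vary with Pnmal1, described below. With it, neither Pax7 (-0.072, adjusted p = 0.720) nor Fap (-0.0023, adjusted p = 0.994) was called. This level separates MKO from FLOX mice, so the covariate takes up part of the genotype difference and a lost call decides little. Calls of other genes, such as Myl3 (0.83, adjusted p = 0.096), were lost in that fit too. Of 6 tendon markers only Scx was called, higher by 0.47 (adjusted p = 6.8e-05). None of 5 adipocyte, 5 Schwann cell and 2 red blood cell markers was called.

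The largest rise was that of a single gene of its kind. Gbp6, a guanylate-binding protein, read 336, 498 and 609 in FLOX mice and 1080, 1196 and 2386 in MKO mice (1.40, SE 0.20, adjusted p = 1.01e-05). Its other probe set was called the same way, and all 7 MKO mice were above the FLOX range. None of the other 28 interferon-inducible genes was called by limma, and the median of the list was -0.02. In a like manner Eda2r, a receptor counted among p53 targets, read 345, 397 and 521 against 494, 778 and 924 (0.81, SE 0.13, adjusted p = 5.67e-05), with 6 of 7 MKO mice above the FLOX range. Of the other 16 p53 targets only Zmat3 (0.27, adjusted p = 0.00139) and Mdm2 (0.17, adjusted p = 0.00552) were higher. With Eda2r this made 17.6% of the list, against 9.05% of all genes. In the clock list Rora (0.30, adjusted p = 0.0016) and Clock (0.27, adjusted p = 0.00588) were the 2 called of 18, both higher. That share of 11.1% is near the 9.05% of all genes, and neither of the other 2 probe sets of Clock was called.

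Other rises of a well-separated kind were those of Cd55, a complement regulator, which read 545, 565 and 648 in FLOX mice and 867, 926 and 984 in MKO mice (0.67, SE 0.07, adjusted p = 7.59e-08), and of Septin6, which read 185, 213 and 246 against 291, 408 and 515 (0.83, SE 0.12, adjusted p = 1.3e-05). Panx1, a membrane channel, rose by 0.43 (adjusted p = 1.97e-07) and Bex1 by 0.74 (adjusted p = 0.000344). None of these 4 overlapped between groups.

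A set of genes was picked by 1 property, so that property is no finding about the set. Deviations of these genes from the group means, pooled over all groups, followed those of Pnmal1 from mouse to mouse. The pattern was noticed after seeing the data, and it was delimited as the 101 genes whose deviations from the group means correlate at 0.8 or more with those of Pnmal1 over the 26 arrays. Of these, 94 were lower in MKO mice and none was higher, and they supplied 53 of the 139 genes lower by at least 0.5 (38.1%) and 12 of the 20 largest named falls: Pnmal1, Gramd3, Grik5, Myo7b, Ccdc180, Ube2f, Sp6, Tmem41b, Sema6a, Speer3, Ldhd and Mtx1. Pnmal1 itself read 479, 682 and 1135 in FLOX mice and 189, 267 and 449 in MKO mice (-1.27, SE 0.24, adjusted p = 0.000363). The anchor is thus among the largest falls, and genes picked for following it may fall with it. Their shared direction, and the separation of the groups by their mean level given below, are therefore no independent findings. Esrrb (-0.52, adjusted p = 0.00091) and Fstl1 (-0.66, adjusted p = 0.00307), which stand on the lists of partners and of secreted factors, belong to it as well. Another Esrrb probe set, which did not vary with Pnmal1 (correlation -0.17), was also lower (-0.39, adjusted p = 5.82e-07), while the remaining one was not called. The other Ldhd probe set was lower too (-0.29, adjusted p = 0.000147, correlation 0.41). That of Fstl1 was not called (-0.12, adjusted p = 0.522).

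The mean log2 level of the 101 genes was 9.16 to 9.86 in FLOX mice and 8.66 to 9.16 in MKO mice, every MKO mouse below every FLOX mouse by a narrow margin. FLOX replicate 2 was the highest. None of the respiratory chain genes was in the set, and the within-group deviations of the set's level and of the chain's mean level correlated at 0.01 over 26 arrays that share their scaling. Other probe sets of the same genes did not show it: of 95 further passing probe sets of 48 of these genes, none reached a correlation of 0.8 (highest 0.60). Of these 95, 10 were lower and 7 higher. Among all probe sets naming a single gene 13.4% were called, a share that also counts the dim ones under the filter and so is no like background. Their median difference was -0.01. For Tmem41b, leaving out probe sets of the _s_at and _x_at kinds turned the difference to 0.16 (adjusted p = 0.0281). Under calorie restriction 7 of the 101 were called (6.93%, against 17.3% of all genes). All 101 had the same sign there as on the control diet, with a median of -0.24 against -0.52. With the level of the set as a covariate, an alternative added after seeing the data, 1114 genes were called in place of 2865, of which 906 were called in both fits. That level itself separates the 2 groups, so that the covariate also takes up part of the genotype difference. In that fit 60 of the 85 chain genes were lower.

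**Figure D3:**
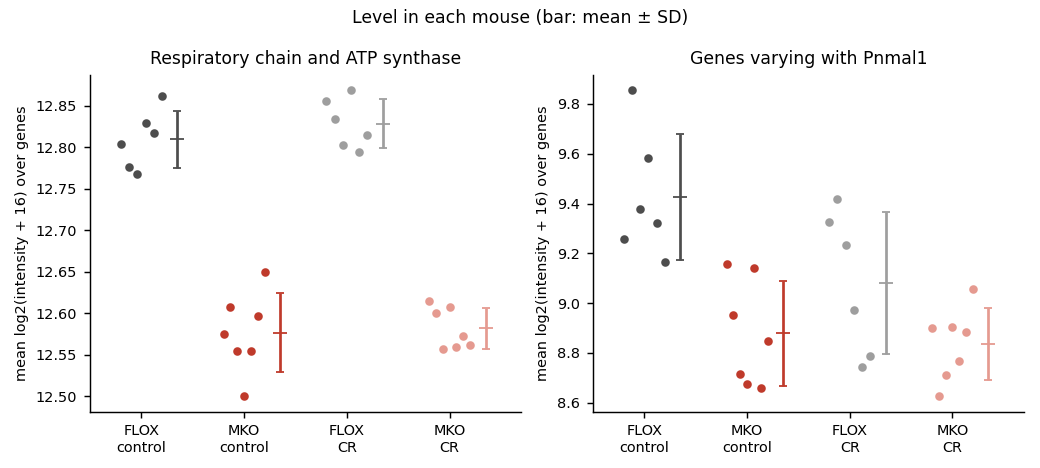
Mean log2(intensity + 16) in each of the 26 mice over the 85 respiratory chain and ATP synthase genes (left) and over the 101 genes that vary with Pnmal1 (right), with the mean and SD of each group as a bar. The chain separates MKO from FLOX mice on both diets, while the genes that vary with Pnmal1 separate them on the control diet and overlap under calorie restriction (CR).

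The same genotypes were compared in the 13 calorie-restricted mice, none of which enters the control-diet means, although all 26 arrays share 1 estimate of the spread. There 2567 genes (17.3%) were called. Of the 2865 genes called on the control diet, 2788 (97.3%) had the same sign in the restricted mice, 1633 (57% of the control-diet calls and 63.6% of the restricted ones) were called in the same direction, and 1 was called in the opposite one. Among all genes 76.8% had the same sign. For the respiratory chain 73 of 85 were lower under restriction and 72 in both. Large falls outside the set that varies with Pnmal1 were called again in 74 of 86 genes (86%), and those inside it in 3 of 53 (5.66%). The sign was the same in 83 of the 86 (median -0.62 under restriction) and in all 53 inside the set (median -0.33). Examples are Kcng4 at -1.61, Car2 at -1.34, Mtfp1 at -1.30 and Cox7a1 at -0.86 in restricted mice, against -0.49 for Pnmal1 (adjusted p = 0.162).

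**Figure D4:**
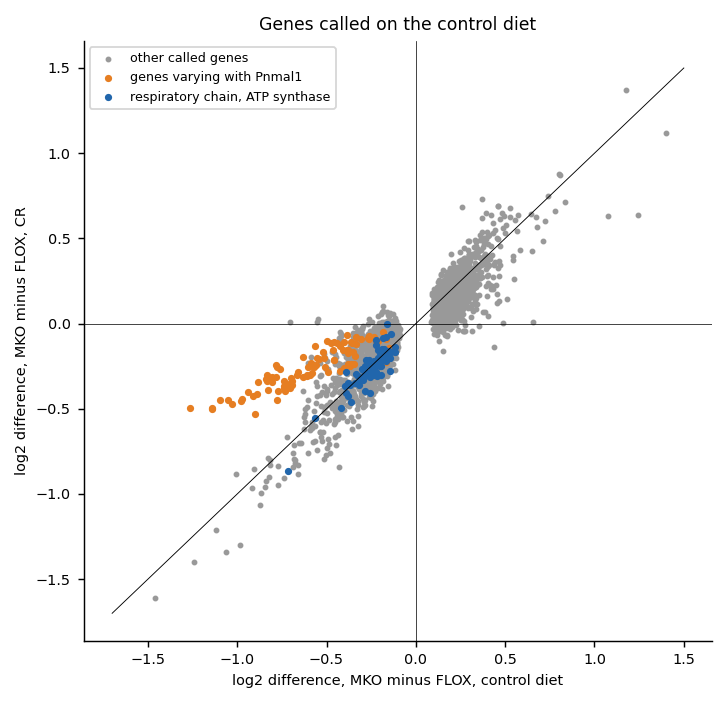
Log2 difference between MKO and FLOX mice on the control diet (horizontal) and under calorie restriction (vertical) for the 2865 genes called on the control diet; the line marks equal differences. Respiratory chain genes lie along the line, and the 94 called genes that vary with Pnmal1 have a median of -0.56 on the control diet and -0.25 under restriction.

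Whether the genotype effect differs between diets was tested directly, and limma called no gene (720 genes, 4.85%, had an unadjusted p under 0.05). The 5 genes of smallest p were Kcnab1, Mtfp1, Tm6sf1, Ube2k and Car2, with adjusted p of 0.389 to 0.488. Kcnab1, a potassium channel subunit, was higher by 0.47 on the control diet (adjusted p = 1.63e-07) and by 0.13 under restriction (adjusted p = 0.0662). Peg3, an imprinted zinc finger gene, read 338, 460 and 661 in FLOX mice and 601, 737 and 825 in MKO mice on the control diet (0.66, SE 0.13, adjusted p = 0.000728) and differed by 0.01 under restriction (adjusted p = 0.977), but the difference between diets of -0.65 did not pass (adjusted p = 0.794), so the rise cannot be called particular to the control diet. Casq2, at -0.55 on the control diet and 0.03 under restriction (adjusted p = 0.93), gave a difference of 0.57 that did not pass either (adjusted p = 0.999).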

How the data were processed

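The authors deposited 1 intensity per probe set and array on a linear scale; the sources used here do not say how the arrays were scaled. The deposited intensities ran from 56.6 to 62.8 at the dimmest probe set of an array to 37243 to 38435 at the brightest, with medians of 212 to 232, and for arrays their number limits the precision. Values were taken as log2(intensity + 16). Of 45101 probe sets, 34945 name a single gene in the platform annotation, 932 several and 9160 none, and 64 are controls; 34741 symbols were updated through RefSeq and 204 kept. Probe sets with a mean under the 30th percentile were left out, and the brightest of those left stood for each gene (6584 genes had several).

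limma 3.58.1 in R 4.3.3 fitted 4 group means to all 26 arrays, 22 residual degrees of freedom, and adjusted over 14854 genes by Benjamini-Hochberg. The fit was tested on simulated data in which each gene varies independently, so that test does not cover genes that vary together. The labels call the animals separate mice. Calls of nearby genes were also checked: 3 pairs of RefSeq neighbours both changed by 0.5 or more.

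Genes were named by a rule: the coactivators and partners, the 20 largest changes and 15 smallest p each way, and up to 4 called members of each list each way. The comparison, the 48 lists (799 of 874 entries tested, 18 under the filter, 57 without a probe set of their own) and the tests were chosen with earlier results of these data known. Alternatives tried were the pseudocount, filter, normalization, probe set rule, limma options, control-diet arrays alone, the replicate number as a block, stricter thresholds and leaving out each mouse.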

Additional observations from a re-analysis of the deposited data

Results flagged for a closer look

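Among 280 sets of values (140 genes in 2 groups), 11 held 1 mouse far from the rest of its group, and chance alone marks about 1 in 20. On the log2(intensity + 16) scale, MKO replicate 3 was the highest of its group for Ppargc1a at 11.21 (next 10.58), and without it the difference was 0.62 (adjusted p = 7.69e-06). MKO replicate 4 was the highest for Gbp6 at 11.23 (next 10.43; 1.26 without it) and the lowest for Cox4i1 at 13.82 (-0.21 without it). MKO replicate 1 was the highest for Prkag2 at 8.85 (0.21 without it, adjusted p = 0.0325). FLOX replicate 2 was the lowest for Sdhd at 12.71 (-0.33 without it) and the highest for Sp6 at 10.56 (-0.81 without it). FLOX replicate 5 was the highest for Kyat1 at 10.63 (-0.38 without it) and the lowest for Myh4 at 14.75, where the uncalled difference went from 0.01 to -0.0053. FLOX replicate 6 was the highest for Mdh2 at 14.02 (-0.24 without it) and for S100a1 at 11.51 (-1.09 without it), and FLOX replicate 1 was the lowest for Cox8b at 13.77 (-0.27 without it). The calls of the 10 called genes held without these mice.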

How the results depend on the processing

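At an adjusted p under 0.01, limma called 1639 genes (718 higher, 921 lower), 2458 probe sets, 1531 genes under restriction and 938 on both diets; with a log2 difference of at least 0.5 required as well as an adjusted p under 0.05, 167 (28 higher, 139 lower), 242, 152 and 80, with 2 chain genes lower. With the level of the genes that vary with Pnmal1 as a covariate the counts were 1114 (402 higher, 712 lower) and 868 on both diets. Under the other alternatives, including leaving out each mouse (2249 to 3186 genes; 72 to 78 chain genes lower), counts stayed within 1.5 times. Nothing in the labels says that replicate numbers pair the mice. Deviations of same-numbered mice from their group means correlated at -0.22 to 0.25. Differently numbered mice were not compared, so this check cannot exclude pairing. The replicate block gave 2882 genes, and 3 of the 140 genes lost their call. Of 130 called genes 120 kept the call without each mouse. With the mean of a gene's probe sets Esrrg went to -0.019, Yy1, Pdk1, Gpx3, Car3, Clock, Mb and Tmem41b lost the call, and the median of AMPK, sirtuin and NAD genes went to 0.019; without _s_at and _x_at probe sets Tmem41b went to 0.16, Notch3 lost its call and the median of ATF4 and heat shock genes went to 0.048. The covariate above turned Fstl1 (0.017), Myo7b (0.023), Ccdc180 (0.076), Ube2f (0.11), Tmem41b (0.053), Sema6a (0.0054), Speer3 (0.0086), Mtx1 (0.048) and the medians of antioxidant (0.026) and atrophy genes (-0.20), and besides these 8 genes, which are part of that level and were no longer called either, 33 of the 140 lost their call. The cause of the other changes was not tested.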
